A study of Mus musculus with 4 samples.

Results

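Store-operated calcium entry refills the calcium store of a cell through the plasma membrane once that store has been emptied. The genes described here are 10 chosen by name for this pathway, all of them found among the 54532 genes of the table: the channel genes Orai1, Orai2 and Orai3, the sensor genes Stim1 and Stim2, the release channel genes Itpr1, Itpr2 and Itpr3, and the pump genes Atp2a2 and Atp2b1. They were compared between 2 libraries labelled Piezo1KO and 2 labelled WT. Every library is labelled as CD4+ T cells taken from a B16 tumour (B16 is a mouse melanoma that makes pigment), with the tumour microenvironment given as the treatment, and the series states a sort of CD4 T cells by flow cytometry. The series concerns the mechanosensitive cation channel Piezo1 and the CD4+ T cells that make interleukin 9. The labels give no allele, no Cre driver, no mouse strain and no age, and they leave unsaid whether each library is its own animal, so every p-value reflects library-to-library spread that may be technical. Libraries are named here by the sample number in their titles.

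When a receptor activates phospholipase C, the messenger inositol trisphosphate (IP3) opens IP3 receptors in the membrane of the endoplasmic reticulum (ER) and calcium leaves the ER. STIM proteins sense the fall in ER calcium, move to places where the ER touches the plasma membrane, and open ORAI channels there. SERCA pumps then return calcium to the ER, and plasma membrane pumps (PMCA) export it. In T cells the entry through STIM1 and ORAI1 drives the calcium signal of the T cell receptor, and pigment cells and most other cell types use the same machinery.

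The libraries held far more melanocyte than T cell RNA. The 8 melanocyte markers (Pmel, Tyrp1, Dct and others) summed to 6375 and 6402 FPKM (fragments scaled to gene length and to a library size the authors chose) in Piezo1KO 1 and Piezo1KO 2, against 5717 and 5768 FPKM in WT 1 and WT 2. By share of all reads assigned to genes, mitochondrial ones included, the order was reversed. The melanocyte markers took 1.81% and 1.00% in Piezo1KO against 2.19% and 2.25% in WT. The 9 T cell markers summed to 11.0 and 6.71 FPKM in Piezo1KO, against 1.43 and 1.46 FPKM in WT. Cd4, the marker in the libraries' label, had 35 and 9 reads in Piezo1KO and 1 and 3 reads in WT. Cd8a had 26 and 3 reads in Piezo1KO and no read in either WT library. By share of assigned reads the T cell markers took 0.00229% and 0.000689% in Piezo1KO (351 and 95 reads). In WT they took 0.000562% and 0.000478% (88 and 76 reads), so Piezo1KO 2 lay much nearer to WT than by FPKM. The 8 myeloid markers summed to 405 and 207 FPKM in Piezo1KO and 53.2 and 40.3 FPKM in WT, and the 3 pan-leukocyte markers to 51.8 and 33.0 FPKM in Piezo1KO and 7.51 and 6.87 FPKM in WT. By share of assigned reads the myeloid markers took 0.0449% and 0.0136% in Piezo1KO against 0.00973% and 0.00739% in WT. The pan-leukocyte markers took 0.0184% and 0.00636% in Piezo1KO against 0.00369% and 0.00325% in WT. Here too Piezo1KO 2 lay nearer to WT than by FPKM. The 4 B cell markers stayed between 1.05 and 3.02 FPKM, the 5 endothelial and fibroblast markers between 6.31 and 13.4 FPKM, and the 4 haemoglobin genes reached 5094 and 8445 FPKM in Piezo1KO against 385 and 241 FPKM in WT. Mitochondrial transcripts took 20.1% and 48.3% of assigned reads in Piezo1KO 1 and Piezo1KO 2, against 3.86% and 2.99% in WT 1 and WT 2. Piezo1 itself had 18.7 and 7.64 FPKM in Piezo1KO and 27.8 and 27.6 FPKM in WT, lower in both Piezo1KO libraries but short of the threshold (limma adjusted p = 0.166). The members' values below are therefore values of these mixed libraries, and how far the leukocyte, erythroid and mitochondrial differences enter them was not tested.

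The 3 ORAI genes stood in the same order of level in all 4 libraries, with Orai3 above Orai1 and Orai1 above Orai2. ORAI proteins form the pore of the calcium release-activated channel, and ORAI1 is the subunit that human T cells cannot do without. The 100 bases before the RefSeq start of each gene (GRCm38.p6) are shown because the family kept 1 ranking in every library. Capitals mark 2 motifs searched on both strands, the E-box TCACGTG or TCATGTG that MITF and TFE factors bind, MITF being the lineage factor of melanocytes, and the CCAAT box.
Orai1, chr5:123014974-123015073, plus strand: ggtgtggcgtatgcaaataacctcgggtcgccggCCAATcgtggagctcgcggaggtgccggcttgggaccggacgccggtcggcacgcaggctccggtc
Orai2, chr5:136170657-136170756, minus strand: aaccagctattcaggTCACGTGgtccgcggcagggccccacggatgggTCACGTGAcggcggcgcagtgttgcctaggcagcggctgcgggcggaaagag
Orai3, chr7:127769715-127769814, plus strand: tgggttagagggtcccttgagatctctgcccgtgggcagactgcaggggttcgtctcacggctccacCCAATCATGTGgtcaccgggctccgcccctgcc
The Orai2 window held 2 E-boxes, the Orai3 window 1 E-box that overlaps its CCAAT box by 1 base, and the Orai1 window a CCAAT box alone. Of 32851 RefSeq promoter windows of the same length, 3.07% held such an E-box and 18.9% a CCAAT box. A match describes these letters and is not evidence of binding. The RefSeq start of Orai2 differs from the gene boundary in the table, while those of Orai1 and Orai3 coincide with it. That Orai2 boundary, 136170713, falls inside the window. The E-box 52 to 45 bases before the RefSeq start of Orai2 therefore lies within the gene as the table bounds it. The E-box 85 to 79 bases before that start lies upstream of the gene.

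Orai3 (ENSMUSG00000043964, GRCm38 chromosome 7, 127769815 to 127775150) had 16.8 and 16.3 FPKM in Piezo1KO 1 and Piezo1KO 2, from 531 and 262 reads, against 14.3 and 12.2 FPKM in WT 1 and WT 2, from 603 and 531 reads. Both Piezo1KO values lay above both WT values, and the log2 fold change of 0.31 (standard error 0.14) fell short of the threshold (limma adjusted p = 0.219). ORAI3 takes part in store-operated channels with other ORAI subunits and in a channel gated by arachidonic acid. Orai1 (ENSMUSG00000049686, chromosome 5, 123015074 to 123030456) had 7.86 and 9.59 FPKM in Piezo1KO and 8.77 and 5.82 FPKM in WT. The groups overlapped, with the highest and the lowest Orai1 value in Piezo1KO 2 and WT 2, and the log2 fold change was 0.25 (standard error 0.23, limma adjusted p = 0.469). Orai2 (ENSMUSG00000039747, chromosome 5, 136147459 to 136170713), whose product tempers ORAI1 currents in mouse T cells, had 2.47 and 1.47 FPKM in Piezo1KO and 2.75 and 2.40 FPKM in WT. Its groups overlapped as well, and Piezo1KO 2, with 67 reads, was the low library (log2 fold change -0.29, standard error 0.22, limma adjusted p = 0.398). In bulk libraries fewer cells of a type and less RNA per cell cannot be told apart.

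The sensor genes had levels close to each other in every library. Stim1 was lower in both Piezo1KO libraries, and Stim2 was not. Stim1 (ENSMUSG00000030987, chromosome 7, 102267806 to 102437319), the main ER calcium sensor of T cells, had 7.70 and 5.56 FPKM in Piezo1KO and 9.12 and 8.54 FPKM in WT. Both Piezo1KO libraries were below both WT libraries, and the log2 fold change of -0.38 (standard error 0.18) did not pass (limma adjusted p = 0.230). Stim2 (ENSMUSG00000039156, chromosome 5, 53998499 to 54121057), which responds to smaller drops of ER calcium, had 5.55 and 7.10 FPKM in Piezo1KO and 5.53 and 6.40 FPKM in WT. Its groups overlapped, and its log2 fold change was 0.07 (95% interval -0.38 to 0.51, limma adjusted p = 0.793).

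Among the IP3 receptors, Itpr1 was the most abundant per length in every library. Itpr1 (ENSMUSG00000030102, chromosome 6, 108213096 to 108551109) had 5.43 and 3.16 FPKM in Piezo1KO and 6.47 and 7.24 FPKM in WT. Piezo1KO 2 was the lowest library, the groups did not overlap, and the log2 fold change was -0.60 (standard error 0.24, limma adjusted p = 0.189). Itpr2 (ENSMUSG00000030287, chromosome 6, 146108299 to 146502223) was the steadiest member in the deposited FPKM, though not under every treatment of the values given below. It had 2.24 and 2.28 FPKM in Piezo1KO and 2.18 and 2.24 FPKM in WT, with a log2 fold change of 0.02 (95% interval -0.36 to 0.40, limma adjusted p = 0.928). Itpr3 (ENSMUSG00000042644, chromosome 17, 27057304 to 27122223) was the least abundant member, with 1.30 and 0.416 FPKM in Piezo1KO and 1.81 and 1.21 FPKM in WT. Its Piezo1KO 2 value rested on 28 reads (exact Poisson 95% interval 0.276 to 0.601 FPKM, counting error only). The Itpr3 groups overlapped, its Piezo1KO mean of 0.856 FPKM was under the filter that it passed through WT, and the log2 fold change was -0.47 (standard error 0.31, limma adjusted p = 0.342).

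Atp2a2 was by far the most abundant member and the one with the smallest p. Atp2a2 (ENSMUSG00000029467, chromosome 5, 122453513 to 122502225) encodes SERCA2, the pump that refills the ER in most tissues. It had 75.2 and 55.6 FPKM in Piezo1KO, from 6741 and 2534 reads, against 99.5 and 104 FPKM in WT, from 11933 and 12889 reads. The Piezo1KO mean was 64.2% of the WT mean (65.4 ± 13.8 against 101.8 ± 3.29 FPKM, SD, n = 2 each), the groups did not overlap, and the log2 fold change of -0.65 (standard error 0.21) had an unadjusted p of 0.0295 and did not pass (limma adjusted p = 0.151). Atp2b1 (ENSMUSG00000019943, chromosome 10, 98914406 to 99026143), which encodes the widespread plasma membrane pump PMCA1, had 3.35 and 2.58 FPKM in Piezo1KO and 4.16 and 4.48 FPKM in WT. Its groups did not overlap either (log2 fold change -0.43, standard error 0.16, limma adjusted p = 0.172).

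**Figure D1:**
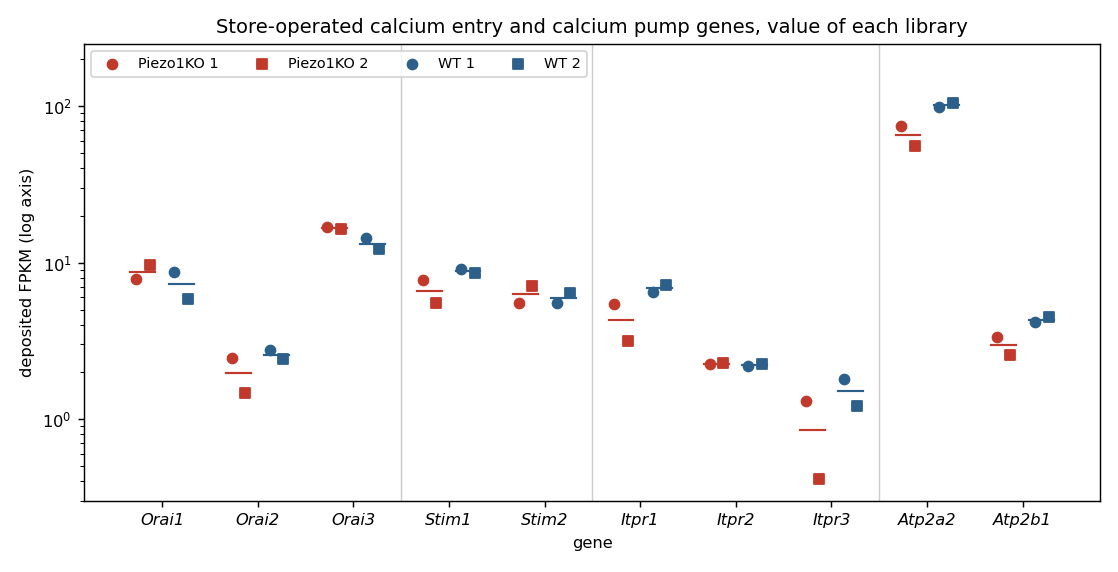
Deposited FPKM (log axis) of the 10 genes in each library, with Piezo1KO points in red left of WT points in blue, circles for library 1 and squares for library 2, and horizontal bars for group means. Atp2a2 stands highest in every library (55.6 to 104 FPKM), and Stim1, Itpr1, Atp2a2 and Atp2b1 have both Piezo1KO points below both WT points.

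Levels spanned a wide range within each library. In Piezo1KO the order of mean FPKM ran Atp2a2, Orai3, Orai1, Stim1, Stim2, Itpr1, Atp2b1, Itpr2, Orai2 and Itpr3. In WT it ran Atp2a2, Orai3, Stim1, Orai1, Itpr1, Stim2, Atp2b1, Orai2, Itpr2 and Itpr3. Neighbours whose library values overlapped in Piezo1KO were Stim1 with Stim2, Itpr1 with Atp2b1, and Itpr2 with Orai2. In WT they were Stim1 with Orai1, and Orai1 with Itpr1. Among protein-coding genes Atp2a2 stood at percentile 97.5 and 95.8 in Piezo1KO and 98.6 and 98.7 in WT by FPKM, while Itpr3 stood at 56.9 and 50.3 in Piezo1KO and 59.7 and 56.7 in WT.

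The use of genes within a family does not depend on how a library was scaled, since each share is taken inside 1 library. Shares can still follow the trend in gene length given below, and they were not recomputed with it removed. Orai2, Stim1 and Itpr1 are the longest genes of their families, at 6077, 10371 and 18319 bases. With the trend removed, log2 fold changes were -0.07, -0.13 and -0.04 for Orai1, Orai2 and Orai3. They were -0.06 and 0.16 for Stim1 and Stim2, and -0.16, 0.42 and -0.19 for Itpr1, Itpr2 and Itpr3. With 2 libraries a group the smallest two-sided exact permutation p is 0.333, so no share difference could pass. Orai3 held 62.0% and 59.6% of summed Orai FPKM in Piezo1KO and 55.4% and 59.7% in WT, a difference of 3.25 percentage points with overlapping groups (exact permutation p = 0.667; 1.08 points without WT 1 and 5.43 points without WT 2). Orai1 held 29.0% and 35.0% in Piezo1KO and 34.0% and 28.5% in WT, which also overlapped (exact permutation p = 0.667). Orai2 held 9.09% and 5.37% in Piezo1KO and 10.6% and 11.8% in WT. The Orai2 shares did not overlap, and their difference of -3.98 points reached the smallest p the design allows (exact permutation p = 0.333), while it was -2.12 points without Piezo1KO 2.

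The order of the STIM genes was not the same in all libraries. Stim1 had 1.39 and 0.783 times the FPKM of Stim2 in Piezo1KO 1 and Piezo1KO 2 (exact 95% intervals 1.24 to 1.55 and 0.672 to 0.915, counting error only). In WT 1 and WT 2 it had 1.65 and 1.34 times that of Stim2 (1.4998 to 1.82 and 1.22 to 1.46). Piezo1KO 2 was thus the library in which Stim2 exceeded Stim1, and Piezo1KO 1 lay between the WT libraries, so the groups overlapped (Stim1 share difference -8.70 points, exact permutation p = 0.667). That difference was -1.61 points without Piezo1KO 2 and -15.8 points without Piezo1KO 1.

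Itpr2 took a larger part of the IP3 receptor family in Piezo1KO. It held 25.0% and 38.9% of summed Itpr FPKM in Piezo1KO 1 and Piezo1KO 2, against 20.9% and 21.0% in WT 1 and WT 2. The difference of 11.0 percentage points came from groups that did not overlap (exact permutation p = 0.333), and it was 4.04 points without Piezo1KO 2 and 18.0 points without Piezo1KO 1. Itpr1 held 60.6% and 54.0% in Piezo1KO and 61.8% and 67.7% in WT, again without overlap (difference -7.52 points, exact permutation p = 0.333; -4.22 points without Piezo1KO 2 and -4.58 points without WT 2). The Itpr1 to Itpr2 ratio was 2.43 and 1.39 in Piezo1KO (exact 95% intervals 2.19 to 2.69 and 1.18 to 1.62) and 2.97 and 3.23 in WT (2.72 to 3.24 and 2.97 to 3.52). The Piezo1KO 1 and WT 1 intervals did not overlap, but such intervals leave out the spread between libraries. Itpr3 held 14.5% and 7.10% in Piezo1KO and 17.3% and 11.3% in WT, which overlapped (exact permutation p = 0.667).

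**Figure D2:**
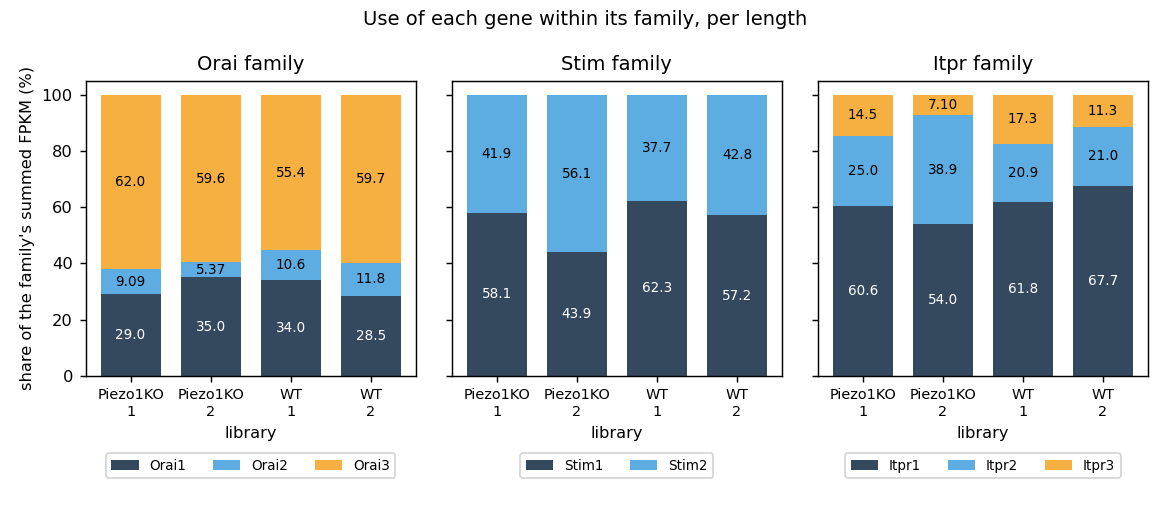
Share of each family's summed FPKM (%) held by each gene, 1 bar per library with Piezo1KO bars left of WT bars; the number in each block is the share. Itpr2 takes 25.0% and 38.9% in Piezo1KO against 20.9% and 21.0% in WT, and Piezo1KO 2 is the library in which Stim2 exceeds Stim1.

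By deposited FPKM the balance of the pumps was similar in all libraries. Atp2a2 had 22.4 and 21.6 times the FPKM of Atp2b1 in Piezo1KO (exact 95% intervals 20.8 to 24.2 and 19.1 to 24.4) and 23.9 and 23.3 times in WT (22.6 to 25.4 and 22.0 to 24.6). The log2 ratio was 4.49 and 4.43 in Piezo1KO and 4.58 and 4.54 in WT. It was lower by 0.10 in Piezo1KO, and the groups did not overlap (exact permutation p = 0.333), while the counting intervals of all 4 libraries did. Atp2b1 is the longer gene, at 15218 bases against 6081 for Atp2a2. The ratio was not recomputed with the trend in gene length removed. With that trend removed, the log2 fold changes were -0.49 for Atp2a2 and -0.02 for Atp2b1. Within the SERCA genes Atp2a2 held 98.7% and 99.1% of summed FPKM in Piezo1KO and 99.7% in each WT library. Atp2a3, which encodes the SERCA3 pump of blood cells and was singled out after its values were seen, had 77 and 19 reads (0.989 and 0.480 FPKM) in Piezo1KO and 28 and 22 reads (0.269 and 0.205 FPKM) in WT, below the filter. The pan-leukocyte and myeloid markers given above were higher in the same libraries. Within the PMCA genes Atp2b1 held 90.8% and 94.4% in Piezo1KO and 93.7% and 94.7% in WT, nearly all of the rest being Atp2b4, with 14 to 68 reads a library.

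Tested across all genes, 0 of the 10 members passed at an adjusted p of 0.05 in limma, against 122 of 11085 tested genes, or 1.10%. By voom, limma's method for reads, 0 members passed as well. At an unadjusted p under 0.05 there were 2 members, Atp2a2 and Atp2b1, while 28.6% of all tested genes reached that p. The groups did not overlap for 4 members lower in Piezo1KO (Stim1, Itpr1, Atp2a2 and Atp2b1), where 35.6% of tested genes did the same. They did not overlap for 1 member higher in Piezo1KO (Orai3), where 33.9% of tested genes did. The members' median log2 fold change was -0.33 beside -0.0059 for all tested genes. It was -0.064 beside -0.030 for all genes with the trend in gene length removed, and -0.10 beside -0.0025 without Piezo1KO 2. The count of members lower without overlap, 4 of 10, is thus near that of the whole table.

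The number of calls rested on single libraries. Without Piezo1KO 1, 6 members passed, all lower in Piezo1KO (Orai2, Stim1, Itpr1, Itpr3, Atp2a2 and Atp2b1), when 52.9% of all tested genes passed. Without Piezo1KO 2 Atp2a2 alone passed, at a log2 value of -0.43 (limma adjusted p = 0.0445), when 14.2% of all tested genes did. The log2 fold changes of Itpr1, Stim1, Itpr3, Orai2 and Atp2b1 without that library came to -0.29, -0.18, -0.12, -0.043 and -0.29. Without WT 1 or without WT 2, no gene of the table passed in limma, with 723 and 616 genes at an unadjusted p under 0.05. Such fits assume that the lone library varies like the other group.

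The direction of several members depended on the scaling. Scaled to all assigned reads, mitochondrial ones included, the median of all tested genes moved to -0.67, all 10 members were lower in Piezo1KO, and Itpr1 and Atp2a2 passed with -1.24 and -1.45 (limma adjusted p of 0.0434 and 0.00841), when 15.4% of tested genes did. Against that shifted median, Orai1, Orai3, Stim2 and Itpr2 at -0.47, -0.45, -0.63 and -0.52 stood above it. When mitochondrial reads were left out of the library size, the median of all genes was -0.20, Stim2 and Itpr2 turned to -0.13 and -0.14, and Orai1 and Orai3 stood at 0.05 and 0.10. Stim1, Itpr1, Itpr3, Orai2, Atp2a2 and Atp2b1 were lower in Piezo1KO under every scaling tried.

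Gene length moved with the differences. Across the 11085 tested genes the log2 fold change was lower in longer genes (Spearman rho -0.52, a description across genes of the same 4 libraries). The median was -0.34 for the 1694 genes over 8000 bases and 0.07 for the shorter ones, a limit set after the members' lengths were known. Stim1, Itpr1, Itpr2, Itpr3 and Atp2b1 are over it, at 10371, 18319, 14802, 8990 and 15218 bases, while Orai1 and Orai3 have 2295 and 2141 bases. With the length trend removed, Atp2b1, Stim1 and Itpr1 came to -0.02, -0.06 and -0.16, and Orai1 and Orai3 to -0.07 and -0.04. Itpr2, the long member that was level as deposited, came to 0.42 (limma adjusted p = 0.213). Atp2a2, at 6081 bases, kept most of its difference at -0.49 (limma adjusted p = 0.192). The part of RNA integrity in these values was not tested.

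**Figure D3:**
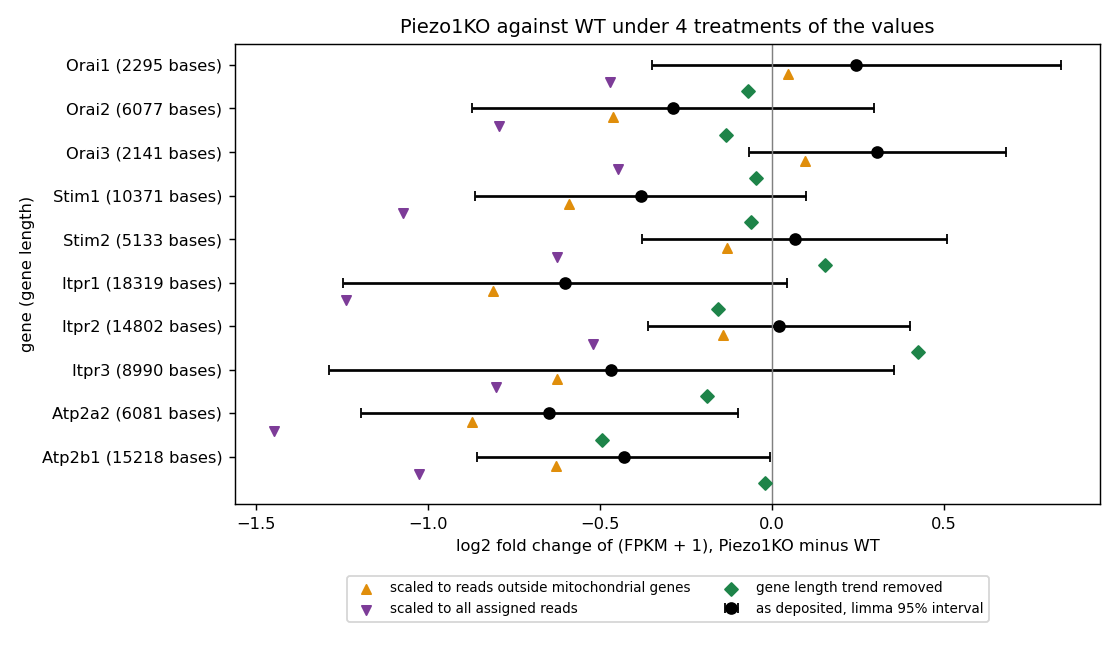
Log2 fold change of FPKM + 1, Piezo1KO minus WT, for each gene with its length in bases. Black points with bars are the values as deposited with limma 95% intervals, and coloured marks are the same values under 2 other scalings and with the gene length trend removed; Atp2a2 is negative under all 4, from -1.45 to -0.49, while Atp2b1 ranges from -1.03 to -0.02.

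Other genes of the calcium pathway were taken from 8 lists of 81 genes, of which 79 were found and 52 passed the filter on low values. No listed gene passed the test in limma in either direction, with 10 of 52 at an unadjusted p under 0.05, a smaller share than the 28.6% of all tested genes, and 30 tested genes had positive and 22 negative log2 fold changes (median 0.07 beside -0.0059 for all tested genes). The genes named below are those with the smallest p of each list.

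In the mitochondrial uptake list 8 of 10 tested genes were positive, with a median of 0.45 that turned to -0.28 when FPKM were scaled to all assigned reads. Smdt1, the EMRE subunit that the mitochondrial calcium uniporter needs, had 65.4 and 118 FPKM in Piezo1KO and 42.7 and 44.2 FPKM in WT (log2 fold change 1.00, limma adjusted p = 0.148). Its log2 fold change was 0.20 scaled to all assigned reads, 0.45 with the length trend removed and 0.58 without Piezo1KO 2. Mcub, a subunit that lowers uniporter current, had 3.50 and 1.52 FPKM in Piezo1KO, from 68 and 15 reads, and 0.346 and 0.336 FPKM in WT, from 9 reads each. Mcub had WT values under 1 FPKM and passed the filter through Piezo1KO (log2 fold change 1.33, limma adjusted p = 0.129, and 0.73 with the length trend removed). Leukocyte markers and mitochondrial transcripts were higher in the same libraries, and their part in these values was not tested.

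Genes that make or remove IP3 were mixed, with 3 positive and 4 negative of 7 tested and a median of -0.04. Itpkb, a kinase that converts IP3 to a tetrakisphosphate and is needed for T cell development in mice, had 8.94 and 6.78 FPKM in Piezo1KO and 11.4 and 10.5 FPKM in WT (log2 fold change -0.44, limma adjusted p = 0.180). Plcg1, the phospholipase downstream of the T cell receptor and of receptor tyrosine kinases, had -0.31, and Inpp5a, a phosphatase of IP3, had 0.28, turning to -0.46 scaled to all assigned reads (limma adjusted p of 0.199 and 0.233). With the length trend removed Itpkb and Plcg1 came to -0.12 and -0.068, and without Piezo1KO 2 Itpkb was -0.26. Among IP3 receptor regulators 3 of 9 tested were positive (median -0.07), with Itpripl2 at -0.41, Ahcyl2, a relative of the receptor-binding protein IRBIT, at -0.32, and Erp44, an ER protein that binds the type 1 receptor, at 0.21 (limma adjusted p of 0.149, 0.281 and 0.347). Ahcyl2 turned to 0.12 with the length trend removed, and Erp44 to -0.56 scaled to all assigned reads and to -0.0036 scaled to reads outside mitochondrial genes.

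Regulators of STIM and ORAI had 6 of 9 tested genes positive and a median of 0.12, which turned to -0.57 scaled to all assigned reads and to -0.099 scaled to reads outside mitochondrial genes. Selenok, an ER selenoprotein needed for calcium flux in mouse immune cells, had 33.1 and 51.2 FPKM in Piezo1KO and 25.9 and 26.9 FPKM in WT (log2 fold change 0.62, limma adjusted p = 0.180). Saraf, which switches STIM1 off after refilling, had 39.3 and 57.7 FPKM in Piezo1KO and 36.4 and 32.7 FPKM in WT (0.45, limma adjusted p = 0.248). Both turned negative scaled to all assigned reads, to -0.17 and -0.34, and with the length trend removed Selenok was 0.20. Slc35g1, a STIM1 partner, had a log2 fold change of -0.29 (adjusted p = 0.193 in limma).

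Of the other pumps and exchangers 3 of 12 passed the filter. Atp2c1, the calcium and manganese pump of the Golgi, had 4.89 and 4.05 FPKM in Piezo1KO and 6.06 and 6.60 FPKM in WT (log2 fold change -0.43, limma adjusted p = 0.159), and its log2 fold change was -0.12 with the length trend removed. Slc24a5, a potassium-dependent exchanger of pigment cells, had 136 and 93.2 FPKM in Piezo1KO and 162 and 166 FPKM in WT (-0.54, limma adjusted p = 0.212), and it was -0.27 without Piezo1KO 2. Slc8b1, the mitochondrial sodium-calcium exchanger, had a log2 fold change of 0.08 (adjusted p = 0.791 in limma). The PMCA subunits Bsg and Nptn, the tested genes of a list of 6 pump subunits and regulators, had log2 fold changes of 0.94 and 0.35 (adjusted p of 0.165 and 0.199 in limma), a median of 0.65 that turned to -0.13 both scaled to all assigned reads and after quantile normalisation. Bsg turned to -0.50 after quantile normalisation and Nptn to -0.40 scaled to all assigned reads. Pln, Sln and Mrln, which restrain SERCA pumps in muscle, had at most 2 reads in any library.

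Of the other intracellular channels, the 3 ryanodine receptor genes stayed below 0.17 FPKM, and 1 of 4 tested genes was positive (median -0.16). Tpcn1, Tpcn2 (both channels of endosomes and lysosomes) and Tmco1 (an ER leak channel) had log2 fold changes of -0.58, -0.25 and 0.50 (adjusted p of 0.204, 0.386 and 0.284 in limma), and Tmco1 turned to -0.26 scaled to all assigned reads. Without Piezo1KO 2, Tpcn1, Tpcn2 and Tmco1 came to -0.24, -0.088 and 0.12. Calcium-binding proteins of the ER and secretory pathway had 6 of 8 positive and a median of 0.14, which turned to -0.67 on all assigned reads, to -0.088 with mitochondrial reads left out and to -0.49 after quantile normalisation. Sdf4, of the Golgi lumen, Rcn1, of the ER, and the ER chaperone Hsp90b1 had log2 fold changes of 0.52, 0.64 and 0.29 (adjusted p of 0.129, 0.263 and 0.343 in limma), turning to -0.25, -0.14 and -0.52 scaled to all assigned reads. Without Piezo1KO 2, Sdf4, Rcn1 and Hsp90b1 came to 0.47, 0.16 and 0.19. Rcn1 had 23.0 and 45.8 FPKM in Piezo1KO and 19.8 and 21.0 FPKM in WT.

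**Figure D4:**
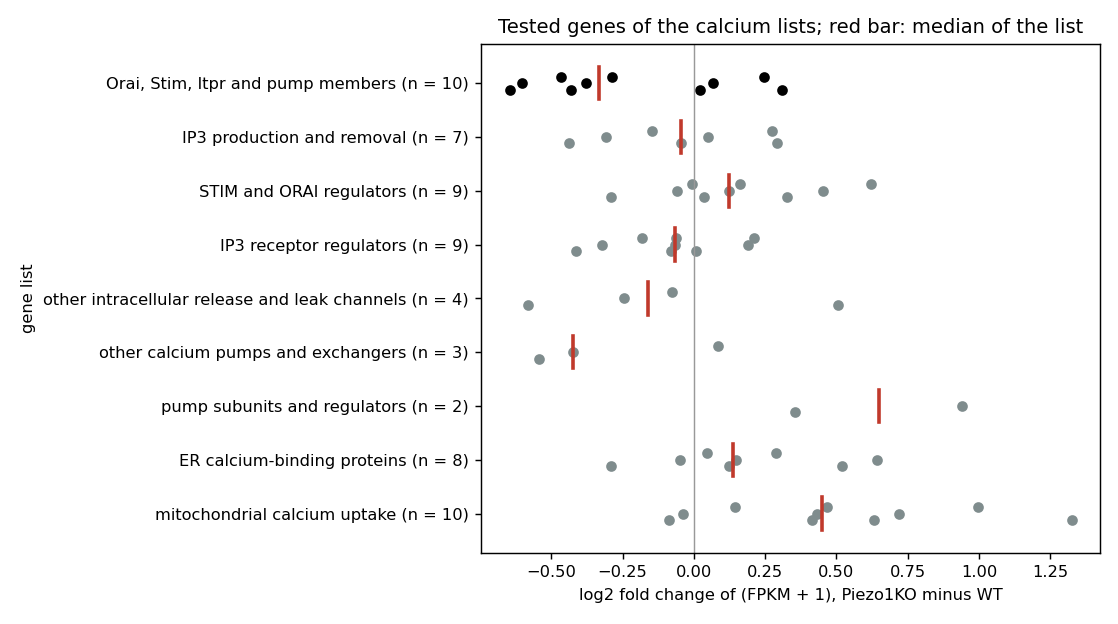
Log2 fold change of FPKM + 1, Piezo1KO minus WT, of every tested gene (points) of the 10 members and of the 8 calcium lists, with a red bar at each list's median. The members' median is -0.33 and that of mitochondrial calcium uptake 0.45; no point passed the test.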

How the data were processed

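The deposited table holds 1 FPKM value per gene and library, with the gene length. Per the submitters' processing notes, fastp 0.19.7 cleaned the reads and featureCounts 1.5.0-p3 counted them on mm10 (GRCm38); aligner, annotation release, strand setting and FPKM formula: not given in the sources used here. Multiplied by gene length, 100% of the FPKM values above 0 were whole numbers of a library's smallest step (tolerance 0.05 reads), and this recovered 13789266 to 15892797 assigned reads per library. The library sizes that the deposited FPKM imply were 0.992 to 0.999 times those of median-of-ratios size factors computed from these reads, up to 1 common factor.

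The test was limma 3.58.1 (R 4.3.3) on log2(FPKM + 1) (intensity trend, no block, two-sided, Benjamini-Hochberg over 11085 genes with mean FPKM of at least 1); this scale understates changes of low genes. All 10 members passed the filter. The fit was also run on simulated reads with a fixed spread per group. These had no gene length trend, no mitochondrial difference and no difference in cell types, so that run does not bear on such effects. Replicates were not near-identical (chi-square per gene 245 in Piezo1KO and 7.59 in WT). Expected reads were set by all assigned reads, so the unlike mitochondrial shares of Piezo1KO 1 and Piezo1KO 2 (20.1% and 48.3%) enter the Piezo1KO value. All members and lists were chosen with earlier results of these data known; genes named outside the members are the 3 of each list with the smallest p and any that passed, except 1 that is not reported here. Levels are compared per length. WT 1 and WT 2 are the table columns numbered 2 and 3. Intervals of reads cover counting error only. Exons of Itpr3, Atp2a2, Itpr1 and Orai1 overlap antisense genes over at most 2.58% of their exon bases (GENCODE M21), whose reads may not be separable. Promoter windows are from RefSeq on GRCm38.p6, and 3 of 3 Orai genes matched by symbol. Alternatives were other pseudocounts, filters and scalings, no trend, voom, removal of the length trend by loess, a replicate block, and each library left out in turn. Itprip and Strit1 are not analysed here.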

Additional observations from a re-analysis of the deposited data

How the results depend on the processing

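The count of 122 genes called (81 higher, 41 lower) was 1 without a filter, 68 at a mean FPKM of at least 5, 1707 scaled to all assigned reads (277 higher, 1430 lower), 137 scaled to reads outside mitochondrial genes (77 higher, 60 lower), 192 after quantile normalisation, 46 with the length trend removed, and 0 to 5859 with 1 library left out. The count of members called, 0, was 2 scaled to all assigned reads and 0 to 6 with 1 library left out, and it was 0 under the other alternatives. With the title's sample number as a replicate block 264 genes and 0 members were called; same-numbered libraries did not deviate together (r = -0.033 across genes), and the labels state no pairing. The Orai1 share difference of 0.722 points ranged from -2.31 to 3.76 with 1 library left out, and the Itpr3 share difference of -3.52 points from -7.21 to 0.177.

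Of 136 alternative values of the 10 members, 116 kept their direction and stayed short of the threshold, 9 passed it and 11 turned. The other filters, the fit without an intensity trend and the replicate block leave each log2 fold change as it was. Values under those settings could therefore not turn, and they are counted among the 136. Scaled to all assigned reads, Orai1, Orai3, Stim2 and Itpr2 turned to -0.47, -0.45, -0.63 and -0.52, and Inpp5a, Selenok, Saraf, Erp44, Tmco1, Slc8b1, Nptn, Sdf4, Rcn1 and Hsp90b1 to -0.46, -0.17, -0.34, -0.56, -0.26, -0.50, -0.40, -0.25, -0.14 and -0.52. Scaled to reads outside mitochondrial genes, Stim2, Itpr2, Erp44 and Slc8b1 turned to -0.13, -0.14, -0.0036 and -0.087. With the length trend removed, Orai1, Orai3, Ahcyl2 and Slc8b1 turned to -0.068, -0.044, 0.12 and -0.0044. Quantile normalisation turned Bsg and Hsp90b1 to -0.50 and -0.47. With 1 library left out, Orai1 ranged from -0.013 to 0.51, Stim2 from -0.086 to 0.22 and Slc8b1 from -0.11 to 0.27. The cause was not tested. Depth limits Itpr3 and Orai2 most, at 28 and 67 reads in Piezo1KO 2.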
